A study of Mus musculus with 40 samples.

Results

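This account covers the genes that lie on either side of Camk2a on mouse chromosome 18. A list of 46 neighbouring genes was given by name, and each was read from the brightest of the probe sets that name it alone, by the mean over all arrays. In this way 42 of the 46 were measured, out of 18194 genes on the array. The genes were chosen by their place near Camk2a, with earlier results of these data known. Ndst1, Tigd6, Arhgef37 and Slc27a6 have no such probe set listed and were not analysed here. In gene order 27 measured members precede Camk2a and 15 follow it. The order is that of assembly GRCm38.p6 and serves here to tell which genes neighbour which, because the files name no build. Between the outermost members lie 22 further measured genes that are not on the list, so a position is given below as the number of measured genes, or steps, from Camk2a.

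Dentate gyrus RNA from 40 mice was hybridised to 1 array per animal, 37 labelled mutant and 3 labelled wild type. The mutants are described as alpha-CaMKII HKO, an abbreviation that the labels do not spell out. In the sources used here it is not given how the allele was made, in which embryonic stem cells, or for how many generations it was backcrossed. Both groups are labelled with the C57BL/6J background and carry a 24-h LA value, read here as locomotor activity, whose unit is not given. The mutants are 22 to 33 weeks old, and wild types 1, 2 and 3 are 29, 27 and 28 weeks old. Activity spanned 16273.92 to 128827.08 in the mutants and 14301.12 to 20979.78 in the wild types. Values are log2 RMA intensities, and the small number of wild-type arrays limits the precision of every genotype difference. The p-values rest on a spread per gene that is pooled over both groups and comes mostly from the mutants. The wild types are thereby assumed to vary like the mutants.

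The kinase CaMKII, which responds to calcium and calmodulin, is abundant at excitatory synapses of forebrain neurons, and Camk2a encodes its alpha subunit. An allele made by targeting keeps DNA of the stem cell strain on both sides of the target, and linked genes can stay of that strain through backcrossing while unlinked genes are replaced. Genes on either side of a target are for that reason commonly looked at beside the target itself. The arrays do not show which strain the DNA of a neighbour came from, and its part in the differences below was not tested. In a whole-tissue sample, fewer cells of a type and less RNA per cell cannot be told apart.

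The labels of a pair of arrays have to be considered before any result. Camk2a read 12.79 and 12.81 in wild types 1 and 2, and 12.08 in the array labelled wild type 3. It read 12.90 in the array labelled mutant 27, against a lowest value of 12.004, a median of 12.14 and a highest value of 12.31 in the other 36 mutants. The array labelled wild type 3 thus lay among the mutants and that labelled mutant 27 lay with wild types 1 and 2. Over all 40 arrays the difference, mutant minus wild type, was -0.40 (SE 0.10, limma adjusted p = 0.014). With both arrays left out, and not exchanged, it was -0.66 (SE 0.06), or 0.634 of the wild-type level, with all 36 mutants below both wild types. Because the arrays were set aside for their Camk2a values, the Camk2a differences without them, and their SEs, are a description and no test. These values are from the brightest of 6 Camk2a probe sets. Without the 2 arrays the others differed by -1.18 (SE 0.19), -0.58 (SE 0.22), -0.96 (SE 0.15), -0.96 (SE 0.25) and -0.17 (SE 0.17). Those of -0.58 and -0.17 did not pass when all probe sets were tested. The 24-h activity was 46297.38 under the label mutant 27, above every wild type. Under the label wild type 3 it was 14301.12, the lowest of all 40. Mutant values began at 16273.92, inside the range of the wild types. Activity is recorded with the label, so it cannot show whether the RNA or the array matches that label. The counts, and the differences of the members described in full, are therefore given with and without these 2 arrays. The granule cell markers Prox1 and C1ql2 averaged 9.05 and 9.98 and did not pass the test in either comparison, while 5 of the 8 granule cell markers measured were lower and 1 higher in mutants in both. Without the 2 arrays Dsp differed by -6.77 (SE 0.25) and Tdo2 by -5.75 (SE 0.17). The mean level of the granule cell list was 9.26, 9.34 and 7.19 in the wild types, 9.33 in mutant 27 and 7.08 to 7.52 in the other mutants, and its part in the members' differences was not tested.

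Over all 40 arrays 2 of the 42 members passed an adjusted p of 0.05, a share of 4.76% beside the 3.95% of all genes that did so. Zfp608 was higher and Isoc1 lower in the mutants, and the other 40 members did not pass. At an unadjusted p under 0.05 there were 11 members. Leaving out wild type 1 or wild type 2 took the limma count to 0 members and 0 of all genes (3 and 4 members at an unadjusted p under 0.05). For these fits the share of all genes at that unadjusted p was not taken. Leaving out wild type 3 took the limma count to 11 members and 2360 of the 18194 genes. The median difference over the members was -0.03, against -0.02 over all genes. The median size of a difference, ignoring its sign, was 0.11 in the members and 0.09 in all genes.

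Without mutant 27 and wild type 3, 11 of the 42 members passed, or 26.2%, where 14.3% of all genes did. Of these, 3 were higher in mutants (Zfp608, Chsy3 and Ppargc1b), beside a share of 6.06% of all genes in that direction. The other 8 were lower (Ppic, Prrc1, Isoc1, Iigp1, Rbm22, Slc26a2, Pcyox1l and Ablim3), beside 8.26% of all genes. Among the 9097 brightest genes by mean, 2 of 23 members were higher and 4 lower (26.1% together), beside 10.5% of all such genes in each direction, so that the member share lay closer to the background among bright genes. Of the other measured genes of the chromosome, 64 of 416 (15.4%) passed. The median difference was -0.07 over the members and -0.05 over all genes, and the median size was 0.16 and 0.14. Leaving out wild type 1 as well brought the count from 11 to 6, beside 5.54% of all genes, and leaving out wild type 2 as well brought it to 8, beside 15.3% of all genes. These shares describe a list picked with earlier results known and carry no test.

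**Figure D1:**
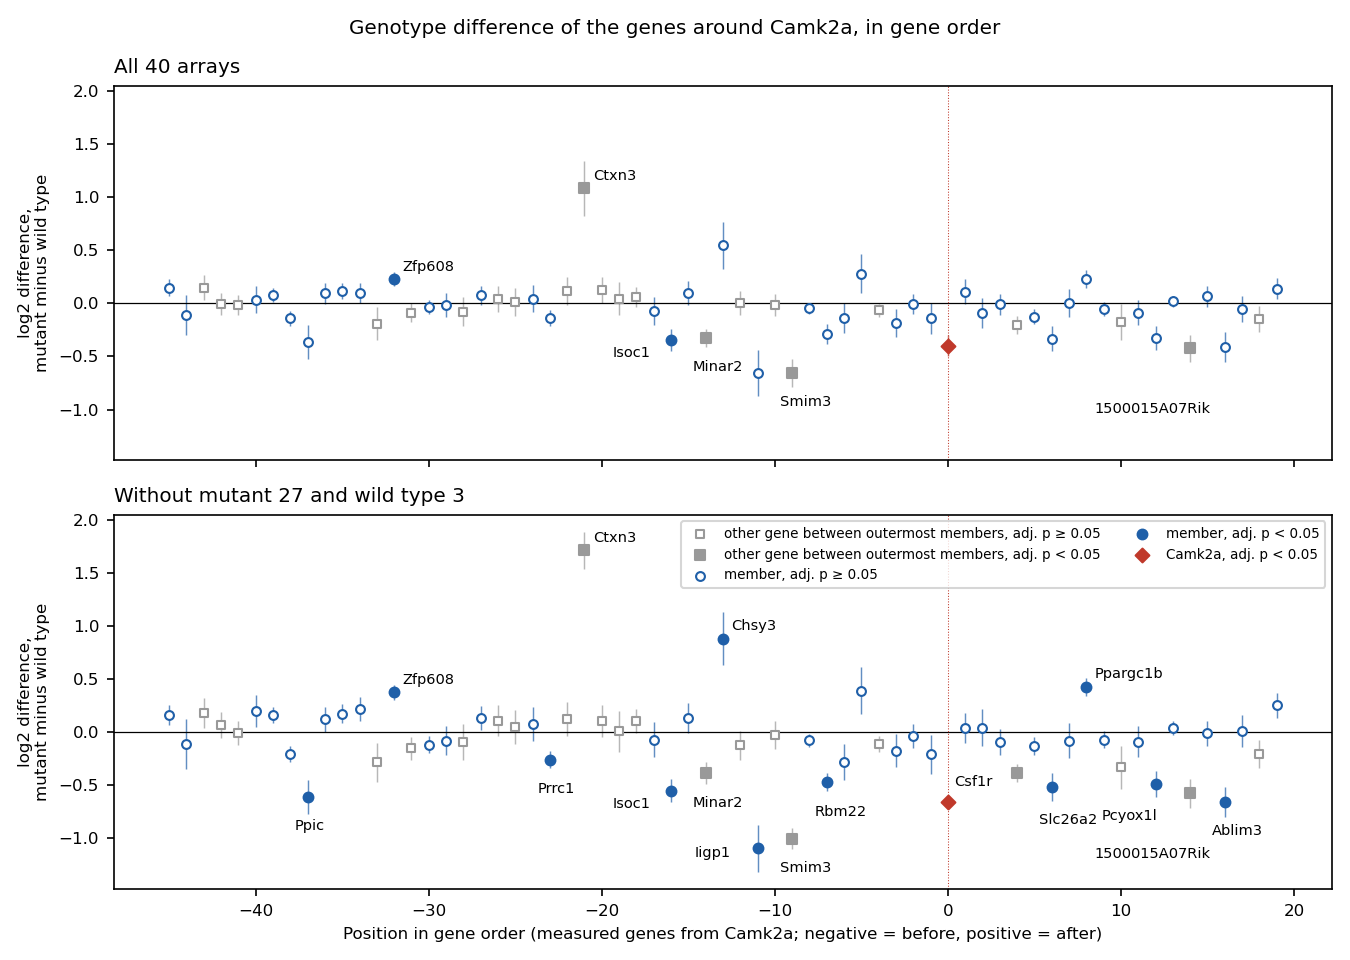
Difference between genotypes in log2 units (vertical axis, mutant minus wild type, bars are the SE) for every measured gene between the outermost members, placed by its number of measured genes from Camk2a (horizontal axis), over all 40 arrays (top) and without mutant 27 and wild type 3 (bottom). Circles are members, squares the other genes and the diamond Camk2a, and filled symbols passed an adjusted p of 0.05. In the lower panel the filled circles are spread over both sides, and the 3 members next to Camk2a on each side are open.

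The members closest to Camk2a did not pass. The 3 nearest before it are Arsi, which encodes an arylsulfatase, Tcof1, the nucleolar protein treacle that serves ribosomal RNA synthesis, and Cd74, the invariant chain of MHC class II molecules. The 3 nearest after it are Slc6a7, a brain proline transporter, Cdx1, a homeobox factor of the intestine, and Pdgfrb, the PDGF receptor of pericytes. None of these 6 passed with or without the 2 arrays, and none was at an unadjusted p under 0.05 in either comparison.

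Arsi, 1 step before Camk2a, read 4.67, 5.08 and 4.68 in wild types 1, 2 and 3 and 4.83 in mutant 27, and the other 36 mutants ran from 3.94 through a median of 4.70 to 5.23. All 4 single arrays lay inside that range. Its difference was -0.14 (SE 0.15) over all arrays and -0.21 (95% interval -0.58 to 0.16) without the 2 arrays. Slc6a7, 1 step after Camk2a, read 7.50, 7.60 and 7.34 in the wild types and 7.51 in mutant 27, again inside the 7.26 to 8.04 of the other mutants, whose median was 7.59. Its difference was 0.11 (SE 0.12) over all arrays and 0.04 (95% interval -0.24 to 0.33) without the 2 arrays. A fall as large as that of Isoc1 or Rbm22 lies inside the interval of Arsi and outside that of Slc6a7.

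Over all arrays and then without the 2 arrays, Tcof1 differed by -0.01 and -0.03 (95% interval of the second -0.26 to 0.19) and Cd74 by -0.18 and -0.18 (-0.49 to 0.14). In the same order Cdx1 differed by -0.09 and 0.04 (-0.30 to 0.39), a change of sign within its error, and Pdgfrb by -0.01 and -0.09 (-0.33 to 0.15). The wild-type arrays of these 4 genes overlapped the mutants throughout, apart from wild type 1 for Tcof1, which at 5.58 lay just above the highest mutant at 5.57. Hmgxb3, an HMG-box protein 5 steps after Camk2a, read 8.01, 7.86 and 7.92 in the wild types, 7.68 in mutant 27 and 7.59 to 8.10 in the other mutants, and differed by -0.13 in both comparisons (95% interval without the 2 arrays -0.30 to 0.04). The nearest members past the threshold without the 2 arrays were Slc26a2, 6 steps after Camk2a, and Rbm22, 7 steps before it. Nearer still was Csf1r, an unlisted gene 4 steps after Camk2a. It also passed without the 2 arrays (-0.39, SE 0.09) but not over all 40.

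**Figure D2:**
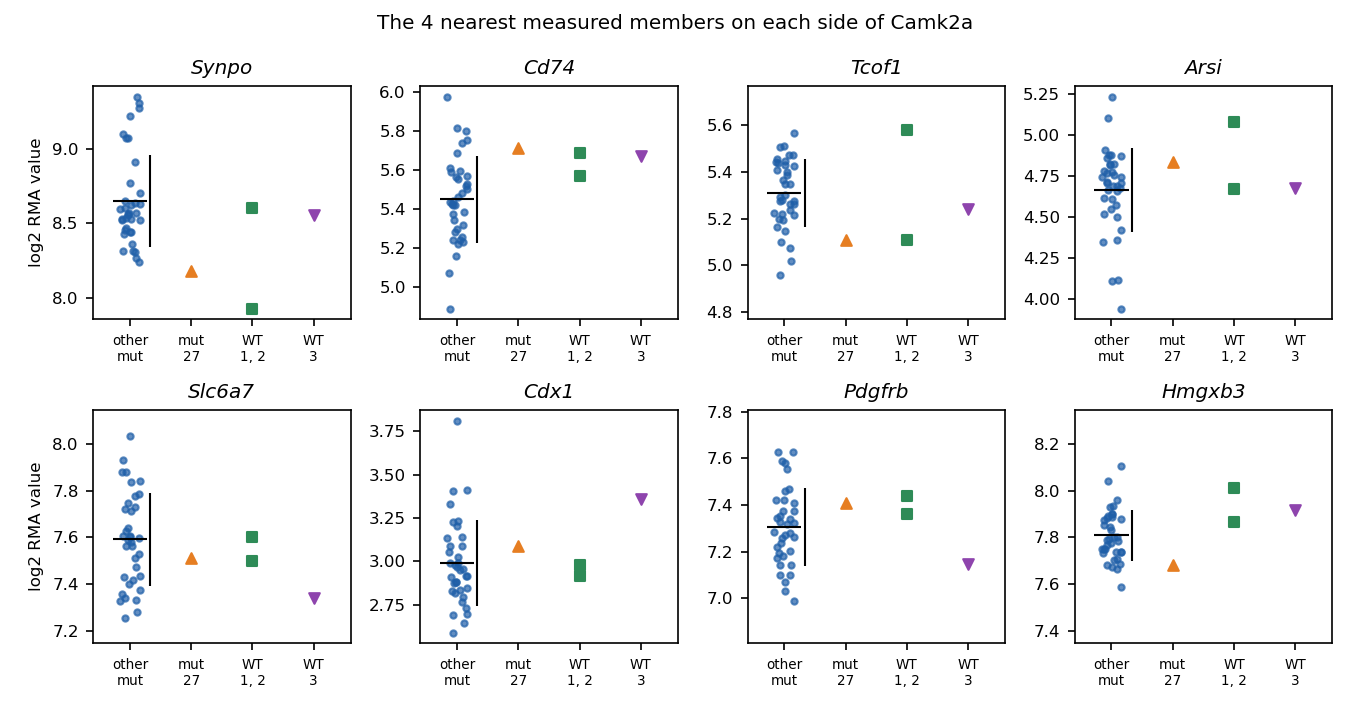
Log2 RMA value (vertical axis, its own scale in each panel) of the 4 measured members nearest to Camk2a on each side, with 1 point per array for the other 36 mutants, mutant 27, wild types 1 and 2, and wild type 3. The horizontal line and the bar beside it are the mean and SD of the 36 mutants, and in 6 of the 8 panels every single array falls within the range of those mutants. The exceptions are Synpo, where wild type 2 and mutant 27 lie below it, and Tcof1, where wild type 1 lies just above it.

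By distance, 3 of the 15 members within 10 steps of Camk2a passed without the 2 arrays, then 5 of the 12 members at 11 to 20 steps and 3 of the 15 members further out, where 14.3% of all genes passed. Over all 40 arrays these counts were 0, 1 and 1, where 3.95% of all genes passed. Counting every measured gene of the interval rather than the listed ones gave 5 of 20, 7 of 19 and 4 of 25. Of the 22 unlisted genes of the interval 5 passed (22.7%), and all 5 are named here because the count is small, after their values were seen. Ctxn3, a neuronal membrane protein of the cortexin family 21 steps before Camk2a, rose by 1.71 (SE 0.18), and by 1.08 (SE 0.26) over all 40 arrays. Smim3, which encodes a small membrane protein, fell by 1.002 (SE 0.10), 1500015A07Rik fell by 0.58 (SE 0.14), Minar2 by 0.39 (SE 0.10) and Csf1r, the growth factor receptor of microglia, by 0.39 (SE 0.09). These 4 genes differed over all 40 arrays by -0.65 (SE 0.13), -0.42 (SE 0.12), -0.32 (SE 0.09) and -0.20 (SE 0.08). Without the 2 arrays Ctxn3 rose by more than any listed member, and Smim3 fell by more than any listed member except Iigp1. Of the 5, all but Csf1r also passed over all 40 arrays. Outside the interval 59 of 394 measured genes of the chromosome passed.

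The members that passed belong to several kinds of gene. Those of transcription and RNA processing come first. Zfp608, a zinc finger protein of the nucleus, read 8.47, 8.52 and 8.92 in wild types 1, 2 and 3 and 8.76 in mutant 27, and the other mutants had a lowest value of 8.61, a median of 8.86 and a highest value of 9.03. All 36 were above wild types 1 and 2, and both remaining arrays fell within their range. It was higher in mutants by 0.23 over all arrays (SE 0.07, limma adjusted p = 0.040) and by 0.38 without the 2 arrays (SE 0.07, limma adjusted p = 0.00013), a ratio of 1.30. The call over all arrays was lost without wild type 1 (0.15) and without wild type 2 (0.17). Activity in the model, lower-activity mutants only, the most variable probe set and the replicate block also lost it (limma adjusted p = 0.076, 0.20, 0.19 and 0.59). It stayed with runs as a block, age in the model, centred arrays and the mean of its probe sets (limma adjusted p = 0.0068, 0.039, 0.045 and 0.043).

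Ppargc1b encodes PGC-1 beta, a coactivator of genes for mitochondrial respiration. It read 8.33, 8.27 and 8.87 in the wild types and 8.58 in mutant 27, with 8.40, 8.71 and 9.0 as the lowest, median and highest of the other mutants. The 36 mutants again lay above wild types 1 and 2 with no overlap. The difference was 0.23 over all arrays (SE 0.08, limma adjusted p = 0.12) and 0.43 without the 2 arrays (SE 0.09, limma adjusted p = 0.00033).

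Rbm22, an RNA-binding component of the spliceosome, went the other way. The wild types read 8.57, 8.80 and 8.18, mutant 27 read 8.79, and the other mutants ran from 7.96 through 8.22 to 8.44. Wild types 1 and 2 and mutant 27 were above all 36 mutants, and wild type 3 was among them, which is the arrangement seen for Camk2a. The difference was -0.29 over all arrays (SE 0.09, limma adjusted p = 0.070) and -0.47 without the 2 arrays (SE 0.08, limma adjusted p = 4.6e-05), or 0.720 of the wild-type level. Among the members this was the smallest adjusted p.

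Next come a sulfate transporter and members that encode enzymes or proteins related to enzymes. Slc26a2 carries sulfate into cells, where it is used to sulfate glycosaminoglycans. It read 6.48, 6.496 and 5.95 in the wild types and 6.21 in mutant 27, and the other mutants ran from 5.28 through 5.99 to 6.23. Wild types 1 and 2 were above every one of these mutants, and mutant 27 was within their range. The difference was -0.33 over all arrays (SE 0.12, limma adjusted p = 0.11) and -0.52 without the 2 arrays (SE 0.13, limma adjusted p = 0.0046). That call was lost with wild type 1 or wild type 2 also left out (limma adjusted p = 0.10 and 0.058).

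Chsy3, one of the synthases that build the chondroitin sulfate chain, had the largest rise among the members. It read 4.04, 4.82 and 5.37 in the wild types and 4.54 in mutant 27, against 4.26, 5.42 and 5.84 as the lowest, median and highest of the other mutants. The groups overlapped, with 32 of 36 mutants above both wild types. The difference was 0.55 over all arrays (SE 0.22, limma adjusted p = 0.20) and 0.88 without the 2 arrays (SE 0.25, limma adjusted p = 0.011), a ratio of 1.84 with a 95% interval of 0.38 to 1.38 on the log2 scale. The size rested on which wild type was used: it was 0.49 (limma adjusted p = 0.67) with wild type 1 also left out, and 1.27 (limma adjusted p = 0.0080) with wild type 2 also left out. Its SD among the 36 mutants, 0.35, was also the widest of any member.

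Isoc1, which carries an isochorismatase domain, read 8.25, 8.40 and 7.74 in the wild types and 8.15 in mutant 27. The other mutants ran from 7.20 through 7.76 to 8.02, below wild types 1 and 2 and mutant 27 without overlap. The difference was -0.35 over all arrays (SE 0.10, limma adjusted p = 0.046) and -0.55 without the 2 arrays (SE 0.11, limma adjusted p = 0.00019). The call over all arrays was lost without wild type 1 (-0.29) and without wild type 2 (-0.21). Age in the model, centred arrays and lower-activity mutants only also lost it (limma adjusted p = 0.05003, 0.052 and 0.095). So did the mean of its probe sets, its most variable one and the replicate block (limma adjusted p = 0.20, 0.22 and 0.27). The call stayed with runs as a block, activity in the model and only the brightest genes tested (limma adjusted p = 0.012, 0.035 and 0.025). Leaving out mutant 27 or wild type 3 also kept it (limma adjusted p = 0.019 and 0.00072). Without the 2 arrays the mean of its probe sets gave -0.29 (limma adjusted p = 0.0061). Pcyox1l, a relative of the enzyme that breaks down prenylcysteine, read 5.65, 5.49 and 5.10 in the wild types and 5.41 in mutant 27, and 4.74, 5.09 and 5.60 as lowest, median and highest of the other mutants. All but 1 of these mutants were below both wild types, and the difference without the 2 arrays was -0.49 (SE 0.12, limma adjusted p = 0.0034), after -0.33 (SE 0.11, limma adjusted p = 0.086) over all arrays. With wild type 1 also left out it was -0.41 (limma adjusted p = 0.22).

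Of the members tied to the cytoskeleton and to membrane traffic, Ablim3 and Prrc1 passed. Ablim3 is an actin-binding LIM protein. It read 6.90, 6.82 and 6.17 in the wild types and 6.95 in mutant 27, and the other mutants ran from 5.79 through 6.22 to 6.74, so that mutant 27 was the highest array and wild type 3 lay near the mutant median. The difference was -0.41 over all arrays (SE 0.14, limma adjusted p = 0.10) and -0.66 without the 2 arrays (SE 0.14, limma adjusted p = 0.00069), the same size as that of the brightest Camk2a probe set. With wild type 1 also left out it was -0.62 (limma adjusted p = 0.060). Prrc1, a proline-rich coiled-coil protein, read 7.97, 8.01 and 7.65 in the wild types, 8.04 in mutant 27 and 7.44 to 7.97 in the other mutants, with 35 of 36 below both wild types. Its difference was the smallest that passed, -0.26 without the 2 arrays (SE 0.08, limma adjusted p = 0.021), and -0.14 over all arrays (SE 0.08, limma adjusted p = 0.41). The Prrc1 call without the 2 arrays did not hold for the mean of its 7 probe sets (-0.0080, limma adjusted p = 0.96), and 4 of its 6 other probe sets had the opposite sign. It was also lost with each array centred on its median (limma adjusted p = 0.073) and with the lower-activity mutants only (limma adjusted p = 0.051), and with wild type 1 or wild type 2 also left out (limma adjusted p = 0.20 and 0.14).

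The last pair are genes of immune defence and protein folding. Iigp1, an interferon-inducible GTPase that acts against intracellular pathogens, had the largest fall. It read 5.35, 5.52 and 4.18 in the wild types and 5.21 in mutant 27, and the other mutants ran from 3.70 through 4.35 to 5.27, where mutant 27 lay near the top and wild types 1 and 2 just above it. The difference was -0.65 over all arrays (SE 0.22, limma adjusted p = 0.082) and -1.10 without the 2 arrays (SE 0.22, limma adjusted p = 0.00032), or 0.468 of the wild-type level. Ppic, a cyclophilin of the secretory pathway, read 5.23, 5.84 and 4.86 in the wild types and 5.88 in mutant 27, against 4.38, 4.96 and 5.35 in the other mutants. Wild type 1 was within the mutant range, and the difference without the 2 arrays was -0.61 (SE 0.16, limma adjusted p = 0.0049), after -0.36 (SE 0.16, limma adjusted p = 0.26) over all arrays. With wild type 2 also left out it was -0.31 (limma adjusted p = 0.34), and with wild type 1 also left out -0.92 (limma adjusted p = 0.0033).

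**Figure D3:**
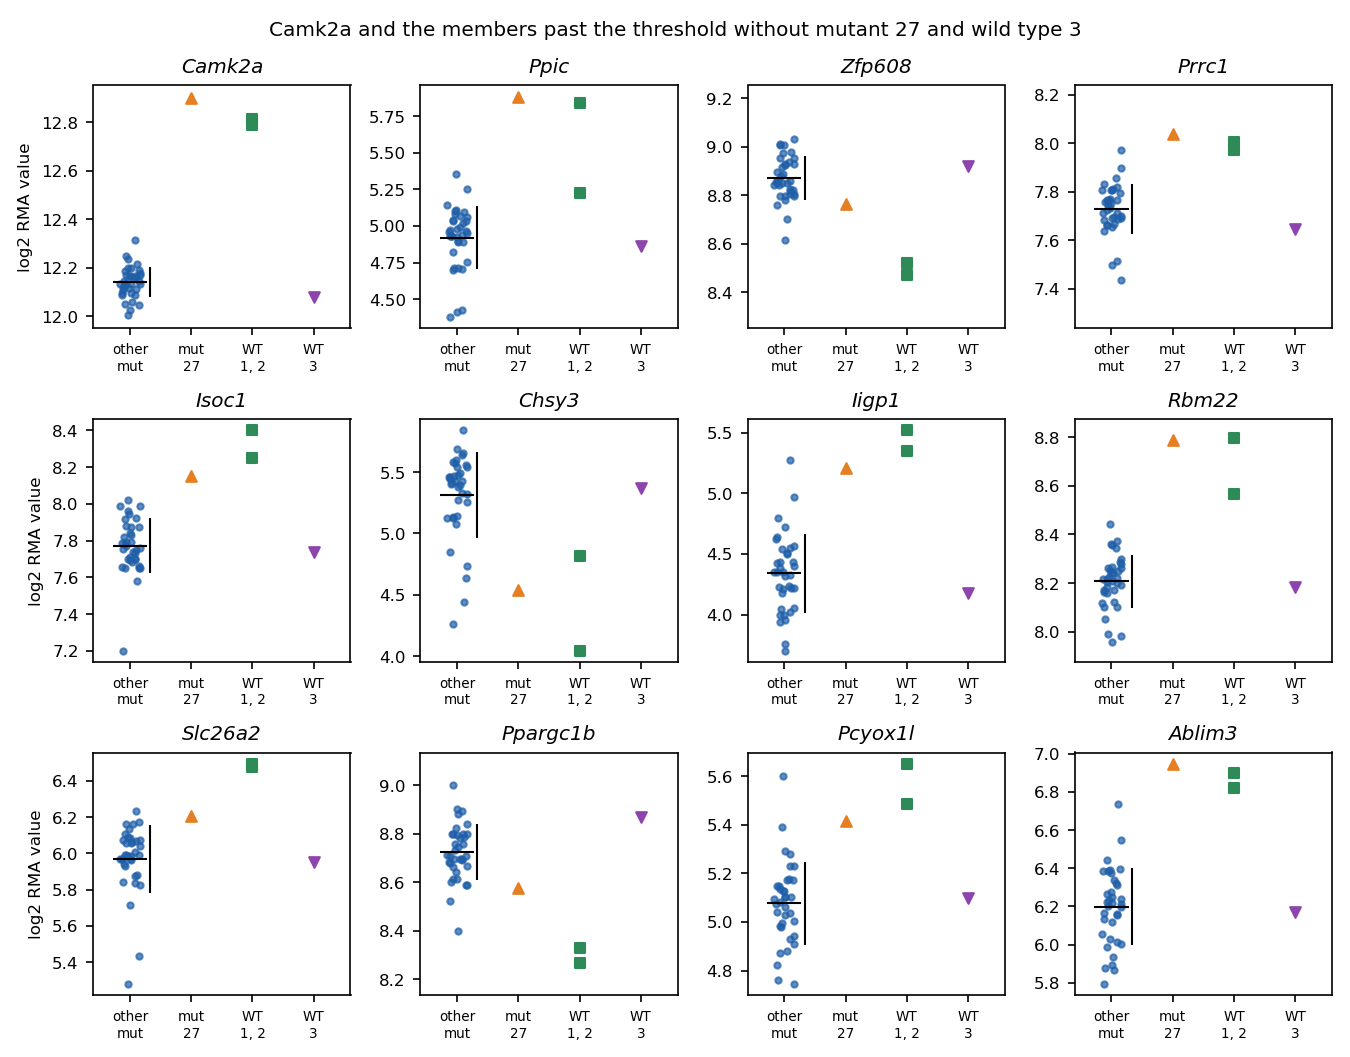
Log2 RMA value (vertical axis, its own scale in each panel) of Camk2a and of the 11 members that passed without mutant 27 and wild type 3, with 1 point per array for the other 36 mutants, mutant 27, wild types 1 and 2, and wild type 3. The horizontal line and the bar beside it are the mean and SD of the 36 mutants. Wild type 3 lies within the mutant points in every panel, and mutant 27 lies with wild types 1 and 2 in Camk2a, Rbm22 and Ablim3 but near the mutants in Zfp608 and Slc26a2.

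Markers of other cells moved beside some of these members. For Iigp1 the other interferon-responsive genes are the relevant list: 9 of 12 were measured, 2 were higher (Irf1 by 0.46, SE 0.07, and Irgm1 by 0.43, SE 0.13) and none lower without the 2 arrays. Their mean level was 5.12, 5.15 and 5.08 in the wild types, 5.05 in mutant 27 and 5.07 to 5.56 in the other mutants, so Iigp1 fell while its list did not. Of 7 microglial markers 5 were lower without the 2 arrays and none over all 40. The list and those 5 include Csf1r, the gene of the interval named above. The mean level of the list was 7.81, 7.64 and 7.12 in the wild types, 7.45 in mutant 27 and 7.14 to 7.59 in the other mutants. For Ppic, of 8 markers of meninges and fibroblasts 2 were lower (Ogn by -3.22, SE 0.50, and Lum by -1.76, SE 0.31), with a mean level of 5.70, 6.29 and 4.91 in the wild types, 6.19 in mutant 27 and 4.81 to 6.77 in the other mutants. Wild type 2 and mutant 27 were high and wild type 3 low in both that list and Ppic. For Cd74, 1 of 5 MHC class II genes was lower (H2-DMa by -0.52, SE 0.09), and for Pdgfrb, 1 of 12 mural cell markers was lower (Anpep by -0.44, SE 0.15), while none of 7 endothelial markers passed. Of 7 markers of CA pyramidal neurons, 3 were lower in both comparisons, among them Iyd by -1.66 (SE 0.22) and Rgs14 by -1.05 (SE 0.13) without the 2 arrays. Their mean level was 7.72, 7.56 and 6.64 in the wild types, 7.41 in mutant 27 and 6.39 to 7.42 in the other mutants, so that wild types 1 and 2 and mutant 27 were high and wild type 3 low. The part of these cells in the members' differences was not tested.

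Wild types 1 and 2 both lay outside the range of the 36 other mutants, on the same side, for 7 members. These were Zfp608, Isoc1, Iigp1, Rbm22, Slc26a2, Ppargc1b and Ablim3, and 8.18% of all genes met that condition. The 2 arrays that had been left out were set aside because their Camk2a values went against their labels. Their values at the same genes are therefore a description and no independent check. In run 4, where both stand, mutant 27 minus wild type 3 had the opposite sign to the genotype difference in all 11 members that passed. So it had in 94.1% of all genes that passed, and in 22 of the 31 members that did not pass (71.0%). Wild type 3 was nearer to the mean of the mutants than to that of wild types 1 and 2 in 11 of the 11 members, against 99.0% of all genes that passed. Mutant 27 was nearer to wild types 1 and 2 in 8 of the 11, against 67.2% of all genes that passed, and the exceptions were Zfp608, Slc26a2 and Ppargc1b. These shares carry no test.

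Runs of 8 consecutive samples in accession order differed in level, although no label names a batch. A run took a median of 32.3% of the variance of a member among the mutants and of 33.7% over all genes, with a highest member value of 84.3% in Csnk1a1. Each wild type stands in a different run, so each genotype difference can be read within a run against 6 or 7 mutants. The 11 members that passed were picked on their difference from wild types 1 and 2, so a like sign against each of these, in runs 1 and 2, is a description only. Against wild type 3, in run 4, the sign was that of the genotype difference in 5 of the 11. With runs as a block, 6 members passed over all 40 arrays beside 7.49% of all genes, and 14 passed without the 2 arrays. Of the 14, 4 were higher, beside 8.85% of all genes, and 10 lower, beside 11.1% of all genes. They held all 11 named above, together with Snx24, Synpo and Csnk1a1.

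Synpo gained most from the block. It encodes synaptopodin, an actin-associated protein of the spine apparatus, and lies 5 steps before Camk2a. It read 8.60, 7.93 and 8.56 in the wild types and 8.18 in mutant 27, and the other mutants ran from 8.24 through 8.57 to 9.35, so that wild type 1 was close to the mutant median. Within run 1 the 7 mutants averaged 0.60 above wild type 1 (SD among those mutants 0.12), and within run 2 the 7 mutants averaged 0.65 above wild type 2 (SD 0.04). Without the 2 arrays its difference was 0.39 (SE 0.22, limma adjusted p = 0.27) with no block and 0.63 (SE 0.09, limma adjusted p = 7.5e-07) with runs as a block. Over all 40 arrays it was 0.28 (SE 0.18, limma adjusted p = 0.54) and 0.43 (SE 0.09, limma adjusted p = 0.0065). Snx24, a sorting nexin, moved from -0.20 (SE 0.08, limma adjusted p = 0.067) to -0.26 (SE 0.05, limma adjusted p = 0.00021) without the 2 arrays, and the casein kinase Csnk1a1 from -0.07 (SE 0.08, limma adjusted p = 0.64) to -0.15 (SE 0.04, limma adjusted p = 0.0054).

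**Figure D4:**
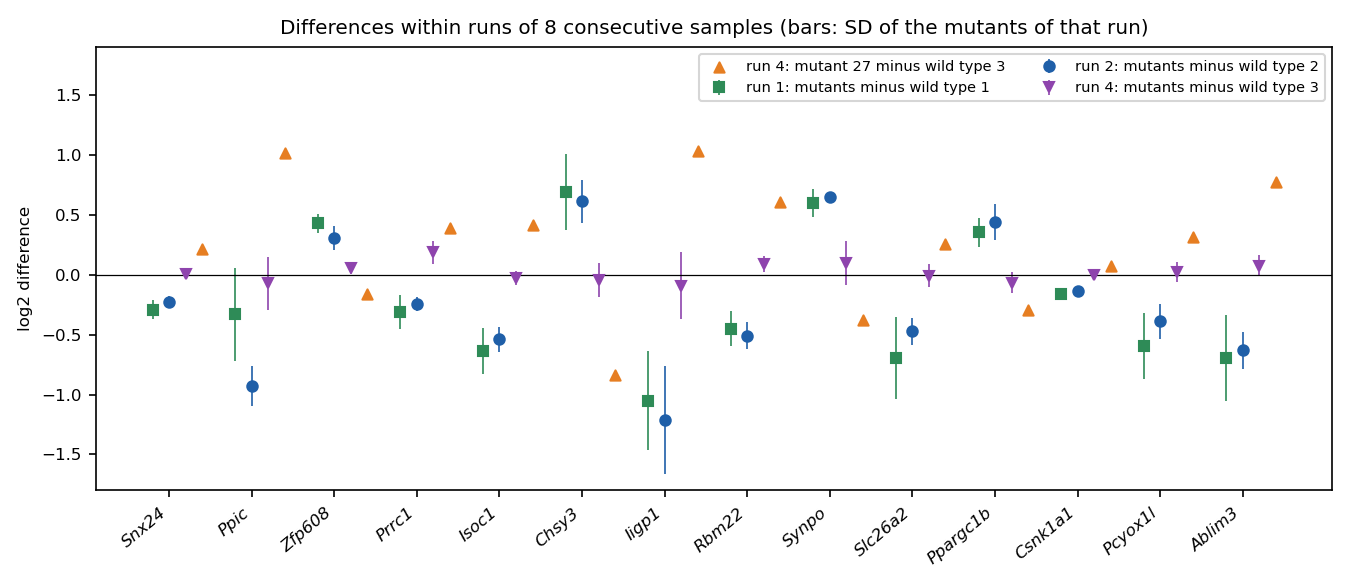
Log2 difference (vertical axis) for the 14 members that passed with runs as a block and without mutant 27 and wild type 3. Squares are the mutants of run 1 minus wild type 1, circles the mutants of run 2 minus wild type 2 and downward triangles the mutants of run 4 minus wild type 3, each a mean with the SD among those mutants as the bar, and upward triangles are mutant 27 minus wild type 3. Squares and circles use the wild types by which the members shown were picked, and lie on the same side of 0 in each. Downward triangles lie close to 0 in most, and upward triangles lie on the opposite side.

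Members with several probe sets allow a check inside the gene. The members have 81 single-gene probe sets, and all single-gene probe sets of the array were tested together for this check. Without the 2 arrays 20 of the 81 passed in limma, 6 higher beside 5.11% of all probe sets and 14 lower beside 5.89%. Over all 40 arrays 0 passed in limma, beside 2.27% of all probe sets. At an unadjusted p under 0.05 were 23, a count for which the share of all probe sets was not taken. The 11 members that passed have 14 further probe sets, of which 9 had the same sign as the chosen one, 5 passed in the same direction and 1 passed in the opposite direction. That one belongs to Isoc1. The second brightest of its 4 probe sets rose by 0.41 (SE 0.12, limma adjusted p = 0.023), while the brightest fell by 0.55 and the others by 0.54 and 0.46. Probe sets of a gene read different stretches of its transcripts, and which stretch each of these reads was not examined here. Both Zfp608 probe sets rose, by 0.38 and 0.36. Dctn4, a dynactin subunit, and Hmgxb3 did not pass by their chosen probe sets, but 2 dimmer probe sets of Dctn4 fell by 0.41 and 0.46 and 1 of Hmgxb3 rose by 0.44.

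**Figure D5:**
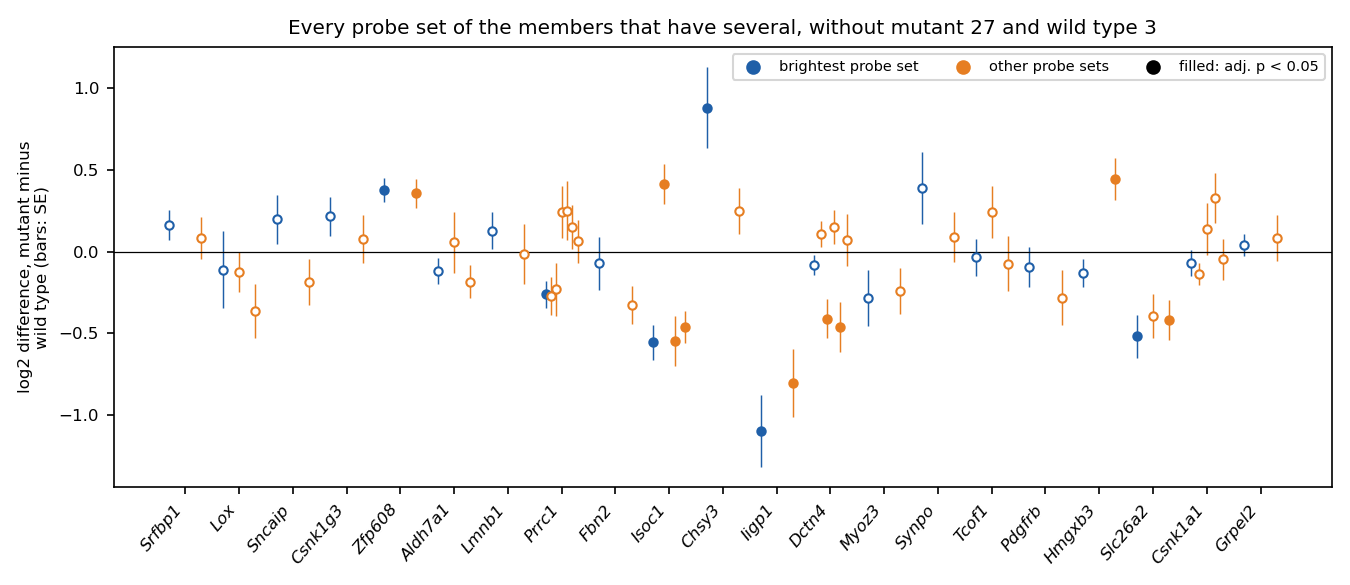
Log2 difference without mutant 27 and wild type 3 (vertical axis, mutant minus wild type, bars are the SE) for every single-gene probe set of the 21 members that have more than 1. Blue marks the chosen probe set and orange the others, and filled symbols passed an adjusted p of 0.05 over all probe sets. Isoc1 has filled symbols on both sides of 0, and the chosen probe sets of Dctn4 and Hmgxb3 are open beside filled ones.

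The 31 members that did not pass without the 2 arrays were split evenly in sign, 15 above 0 and 16 below. Their differences ran from -0.28 in Myoz3, a protein of the muscle sarcomere, to 0.39 in Synpo, and 25 of the 31 were within 0.2 of 0. Several have a known role outside the brain and gave low signals: 10 had a mean under 5, among them Pde6a of rod photoreceptors, Cdx1, the fibrillin Fbn2, the collagen cross-linking enzyme Lox and the Schwann cell protein Sh3tc2. Among the brightest members by probe set, Csnk1a1 averaged 10.86, Dctn4 9.69, the casein kinase Csnk1g3 9.66 and the sorting nexin Snx2 9.50. Dctn4 differed by -0.08 (SE 0.06), Csnk1g3 by 0.22 (SE 0.12, limma adjusted p = 0.24) and Snx2 by 0.16 (SE 0.07, limma adjusted p = 0.16). Dctn4 also had the narrowest spread of any member among the 36 mutants, with an SD of 0.07. Over these mutants, with run means removed, Pearson's r between 2 members had a median of 0.0054 and quartiles of -0.15 and 0.17 over 861 pairs, given as a description of arrays that were normalised together. The rest are Srfbp1, Sncaip, Prdm6, Cep120, Aldh7a1, Phax, Lmnb1, Megf10, Adamts19, Il17b, Grpel2, Afap1l1 and Fbxo38. Of these Fbxo38, an F-box protein at the far end of the interval, differed most, by 0.25 (SE 0.12, limma adjusted p = 0.16).

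The members were also followed across the mutants, which carry the same genotype label and differ in activity and age. With the log2 of activity in the genotype model over all 40 arrays, 3 members passed (Isoc1, Pcyox1l and Ablim3, all lower), beside 3.59% of all genes. The slope on log2 activity among the 37 mutants passed in 0 of 42 members by limma, beside 0.0660% of all genes. At an unadjusted p under 0.05 were 2 members (4.76%), beside 5.62% of all genes. Slopes ran from -0.10 per doubling of activity in Cdx1 to 0.08 in Ppic, and the lowest adjusted p of a member in limma was 0.57. The slope per week of age, with activity in the model, passed in 0 members by limma, beside 0.00550% of all genes. There 7 members (16.7%) were at an unadjusted p under 0.05, where 5.92% of all genes were. The largest age slopes were -0.02 per week in Sh3tc2 and 0.02 in Cdx1. No dependence of a member on activity or age was therefore detectable among the mutants at this threshold.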

How the data were processed

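The deposited values are log2 intensities, 1 array per mouse, that the authors made with RMA (version not given), per the submitters' processing notes. That method subtracts background, normalises the arrays together and combines probes into probe sets, and it was not repeated. Labelling started from 100 ng of total RNA, per the labels' protocols. Each gene was read by its brightest single-gene probe set, with no filter on dim genes (34958 such probe sets of 45101). Genotype was fitted over all genes by limma 3.58.1 under R 4.3.3, with 2-sided moderated tests and an adjusted p (Benjamini-Hochberg) below 0.05, over all 40 arrays and without the 2 arrays whose Camk2a values went against their labels. Runs of 8 samples, log2 activity, age, other probe sets, scaling and left-out wild types were tried as alternatives. The fits were tried on simulated data with independent normal values, the mutants' SD in both groups and no run effect. Those trials therefore do not cover the differences between runs or the arrays that went against their labels. Described by rule were Camk2a, the members that passed in either comparison, the 4 nearest on each side and the 5 brightest. The members, lists and rule were chosen with earlier results of these data known, and members were given no set test. Genotypes share replicate numbers, but these did not pair the samples (r of the deviations 0.43, -0.18 and -0.25). No sequence or coordinate is printed.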

Additional observations from a re-analysis of the deposited data

How the results depend on the processing

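With 3 wild types, of which 1 went against its label, the count of members that passed depended mostly on which arrays were used. The 2 members that passed over all 40 arrays became 11 without mutant 27 and wild type 3 (also with activity added), 14 with runs of 8 as a block besides, and 6 without mutant 27 alone. Over all 40 arrays the count was 6 with runs as a block, beside 7.49% of all genes. It was 1 each with age in the model (3.83% of all genes), with the lower-activity mutants only (2.66%) or with each array centred on its median (3.91%). It was 0 by limma with the probe set of highest variance (12 members at an unadjusted p under 0.05, and 414 of all genes past the adjusted threshold). Leaving out 1 wild type gave 0 to 11: without wild type 1 or without wild type 2 limma passed 0 members and 0 genes (3 and 4 members at an unadjusted p under 0.05), and without wild type 3 it passed 11 members. The replicate block also gave 0 members and 0 genes by limma (8 members at an unadjusted p under 0.05). The share of all genes at an unadjusted p under 0.05 was not taken for these alternatives. Counting all 64 measured genes of the interval gave 6, beside 3.95% of all genes. The median difference of the members was -0.071 without the 2 arrays (-0.070 with activity added), -0.10 with the replicate block, and 0.018 over the 23 members among the 9097 brightest genes.

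Without the 2 arrays (alternatives chosen after seeing the data), the count of 11 became 7 of 23 when only the 9097 brightest genes were tested (25.1% of those genes passed) and 6 to 8 when wild type 1 or 2 was also left out, where the lone wild type is assumed to vary like the mutants. Prrc1, Chsy3, Slc26a2, Pcyox1l and Ablim3 no longer passed without wild type 1, and Ppic, Prrc1 and Slc26a2 without wild type 2. Prrc1 turned to 0.25 (limma adjusted p = 0.45) with its most variable probe set. The cause of these changes was not tested. The counts of 0 for activity and age did not change under any alternative run.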
